A study of Mus musculus with 6 samples.

Results

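Loss of Ring1a and Ring1b in intestinal stem cells that carry an active form of beta-catenin was read from 1 pair of mouse RNA-seq libraries. The Bcat library came from C57BL/6 mice with Lgr5Gfp-CreERT2 and Ctnnb1-ex3, and the Bcat_RingKO library from mice with Lgr5Gfp-CreERT2, Ctnnb1-ex3, Ring1a-/- and Ring1bf/f alleles. A second pair of groups without the Ctnnb1-ex3 allele, 2 WT libraries (Lgr5Gfp-CreERT2) and 2 RingKO libraries (Lgr5Gfp-CreERT2, Ring1a-/-, Ring1bf/f), served for values side by side. In all 4 groups tamoxifen was injected 3 times and GFP-positive cells were sorted from small-intestinal crypts on day 6, per the labels' protocols. Cre is driven by Lgr5, so deletion of the floxed gene is limited to Lgr5-expressing cells and their descendants, while the Ring1a-/- genotype is constitutive. The labels do not say how many animals went into a library. Members were the RefSeq entries whose mean over the 2 libraries was at least 10 normalized reads, which are 10266 of the 17076 entries in the table (19065 entries in either table of the series) and 10145 gene symbols.

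Polycomb repressive complex 1 (PRC1) keeps developmental genes silent. Its RING subunits, RING1A (gene Ring1) and RING1B (gene Rnf2), are the ubiquitin ligases that mark histone H2A, and its CBX subunits bind the histone mark laid down by the companion complex PRC2. Beta-catenin, encoded by Ctnnb1, carries the Wnt signal into the nucleus and maintains crypt stem cells. Exon 3 of Ctnnb1 encodes the sites whose phosphorylation leads to its degradation, and a protein without them is stable.

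With 1 library a group there is no replicate of either genotype, and no p-value is given for this pair. Genotype and library cannot be told apart. A gene is called higher or lower here when the log2 ratio, taken after adding a prior of 5 normalized reads to both values, was at least 1 or at most -1 and the exact conditional binomial 95% interval of the read ratio lay wholly on that side of 1. The interval covers counting error only. Where the Bcat library had 0 reads, the ratio is given as at least a fold, computed against a floor of 3 reads (6.71 normalized reads in Bcat). This fold is a convention and not the lower limit of the 95% interval, which was smaller in the named genes. For Hoxd4 the limit was 24.2 and the fold by the floor 29.9, and for Cdkn2a they were 2.34 and 3.00.

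The promoters of the genes at both ends of the ratio are shown first, because promoters rich in CpG are where Polycomb complexes are mostly found in mouse cells. They are the 4 highest and 3 lowest ratios among the most changed genes that have an entry in the RefSeq promoter table (GRCm38.p6). Each is the 250 bases before the annotated start, with the dinucleotide CG in capitals.
Nes: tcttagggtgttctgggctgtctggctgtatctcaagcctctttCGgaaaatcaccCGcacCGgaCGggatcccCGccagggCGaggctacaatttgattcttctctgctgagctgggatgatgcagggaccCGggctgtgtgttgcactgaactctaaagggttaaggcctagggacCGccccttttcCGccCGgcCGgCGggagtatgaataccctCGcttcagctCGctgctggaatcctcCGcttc
Hoxd4: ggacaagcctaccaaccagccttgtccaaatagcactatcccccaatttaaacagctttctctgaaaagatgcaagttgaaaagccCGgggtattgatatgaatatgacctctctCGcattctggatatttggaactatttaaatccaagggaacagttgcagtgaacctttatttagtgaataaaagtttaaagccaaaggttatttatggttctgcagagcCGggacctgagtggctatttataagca
Ptn: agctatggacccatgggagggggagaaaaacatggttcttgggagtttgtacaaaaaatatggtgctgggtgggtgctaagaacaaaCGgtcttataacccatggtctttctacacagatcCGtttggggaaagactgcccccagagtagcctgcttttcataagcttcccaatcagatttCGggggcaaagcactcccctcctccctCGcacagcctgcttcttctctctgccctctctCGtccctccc
Robo1: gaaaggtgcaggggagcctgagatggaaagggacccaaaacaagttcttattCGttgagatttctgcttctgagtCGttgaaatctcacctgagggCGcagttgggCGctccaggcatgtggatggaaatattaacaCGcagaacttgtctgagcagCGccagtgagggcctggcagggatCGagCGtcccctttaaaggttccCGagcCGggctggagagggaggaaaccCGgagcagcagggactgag
Afp: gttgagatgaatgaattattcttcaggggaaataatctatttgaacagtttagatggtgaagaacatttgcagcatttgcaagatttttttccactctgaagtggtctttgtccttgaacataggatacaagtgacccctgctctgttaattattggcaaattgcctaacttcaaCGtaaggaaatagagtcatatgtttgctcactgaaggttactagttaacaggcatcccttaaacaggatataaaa
Mylk4: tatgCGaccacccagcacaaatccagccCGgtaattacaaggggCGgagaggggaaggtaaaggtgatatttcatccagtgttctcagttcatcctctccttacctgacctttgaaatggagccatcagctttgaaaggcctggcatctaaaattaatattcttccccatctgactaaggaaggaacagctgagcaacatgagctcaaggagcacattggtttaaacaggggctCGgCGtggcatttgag
Akp3: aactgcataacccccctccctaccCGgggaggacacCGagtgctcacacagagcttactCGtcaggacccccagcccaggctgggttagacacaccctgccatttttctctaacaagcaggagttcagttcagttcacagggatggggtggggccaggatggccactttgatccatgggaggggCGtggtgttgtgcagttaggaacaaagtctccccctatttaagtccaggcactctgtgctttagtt
Nes (chr3:87970843-87971092, plus strand) had 15 CpGs, Robo1 (chr16:72662899-72663148, plus strand) 11, Ptn (chr6:36810180-36810429, minus strand) 5 and Hoxd4 (chr2:74721728-74721977, plus strand) 3. On the side of the lower genes, Mylk4 (chr13:32783965-32784214, minus strand) had 5, Akp3 (chr1:87124704-87124953, plus strand) 4 and Afp (chr5:90490464-90490713, plus strand) 1. The median over all 32851 windows of this length in the table was 6, and 37.8% held at least 10. A check of CpG content over the called groups was void, because a window was found for 77.3% of the higher and 77.9% of the lower genes, under the 80% taken as the minimum.

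The libraries differed in depth by 4.85 times, with 922153 reads over 12512 entries in Bcat and 4470853 reads over 16757 entries in Bcat_RingKO. The 10 largest entries took 2.51% and 1.13% of the reads. Epithelial genes were abundant in both libraries, as Epcam (1094 and 2389 reads) and Cdh1 (821 and 3917 reads) show. Normalized for depth, Epcam was at 2446 and 1068 and was called lower, at a ratio of 0.437 (0.406 to 0.470). Cdh1 was at 1836 and 1752 normalized reads and had no call. Of 24 immune marker genes in the table, 1 was higher (Cd68, 13.4 and 127 normalized reads) and 3 were lower among 10 members, and the summed level was 329 normalized reads in Bcat and 320 in Bcat_RingKO. Markers of mesenchymal, endothelial and muscle cells summed to 152 and 51, with 0 of 5 members higher and 3 lower, and those of neural, glial and red blood cells to 47 and 27, with 1 member, which was lower. Of 15 epithelial genes used as a check 0 were higher and 5 lower, Epcam among them. Relative to entries of like length and GC content, as described below, 0 were higher and 10 lower. Cd3e and Cd3d had 0 reads in Bcat, the shallower library. Of the 24 immune marker genes 4 had 0 reads in Bcat, and all had reads in Bcat_RingKO. The X-inactivation RNA Xist had 15 reads in Bcat and 2091 in Bcat_RingKO, a 27.9-fold ratio (16.9 to 49.9), while the Y-linked genes Ddx3y (31 and 293 reads) and Eif2s3y (60 and 296 reads) were read in both. Without the Ctnnb1-ex3 allele Xist stood at 198 and 215 normalized reads in WT and at 233 and 202 in RingKO. What part any of these differences has in the results below was not tested.

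Ring1 was lower in the library labelled Bcat_RingKO, with 24 reads (53.7 normalized) in Bcat and 43 reads (19.2 normalized) in Bcat_RingKO, a ratio of 0.358 (0.213 to 0.617). In the pair without the Ctnnb1-ex3 allele it stood at 309 and 256 normalized reads in WT and at 12.8 and 15.8 in RingKO. Rnf2 was at 174 normalized reads in Bcat and 244 in Bcat_RingKO, a ratio of 1.40 (1.103 to 1.799), and did not reach the fold for a call. Ctnnb1 had 14 and 76 reads (31.3 and 34.0 normalized), a ratio of 1.09 (0.609 to 2.08). Both values are totals over a transcript, so neither checks the deletion of the floxed part of Rnf2 or of exon 3 of Ctnnb1.

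In Bcat_RingKO 2642 of the 10266 entries were higher (25.7%) and 780 were lower (7.6%). With TMM scaling, which lowers the ratio of the normalized reads by 0.22 on the log2 scale before the prior is added, they numbered 2102 and 1127. The ratio was at least 4-fold for 854 of the higher and 158 of the lower entries. Over all members the median log2 ratio was 0.33 and the SD 1.13. For scale, 33.3% of entries were 2-fold apart in this pair, 0.849% between the 2 WT libraries and 4.56% between the 2 RingKO libraries, which were all read more deeply than Bcat. Of the higher entries 250 had 0 reads in Bcat and 816 had under 10 normalized reads there. Entries that are close to silent in the other pair (under 1 normalized read in WT and under 3 in RingKO, 1734 entries) averaged 1.06 normalized reads in Bcat and 1.22 in Bcat_RingKO. Of these 1734 entries 2 were called higher and 43 lower, and the largest values were 44.7 in Bcat and 20.1 in Bcat_RingKO.

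**Figure D1:**
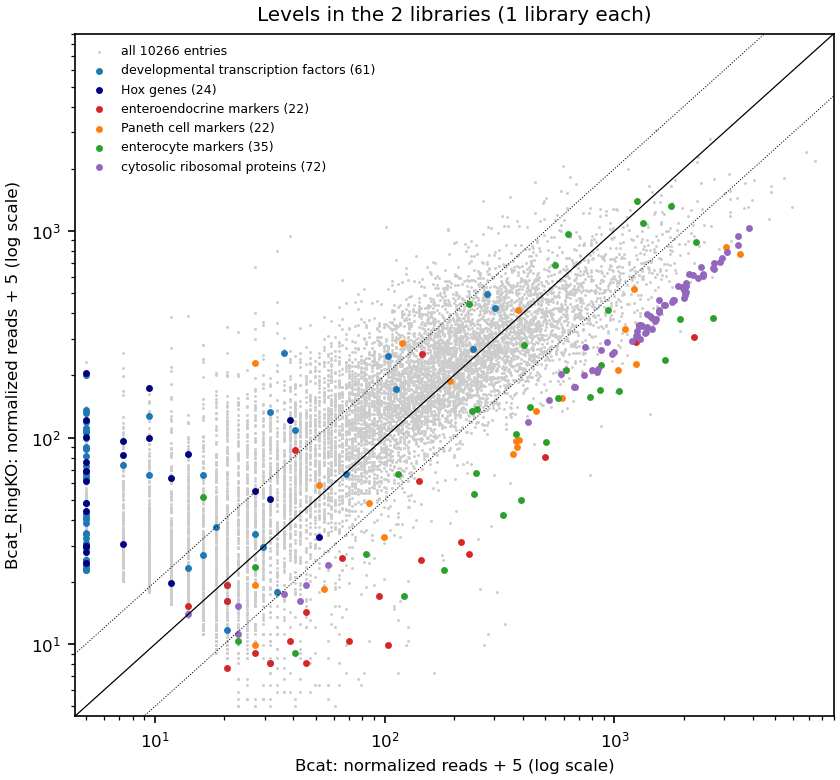
Normalized reads plus 5 in Bcat (x axis) and Bcat_RingKO (y axis), both on log scales, for the 10266 entries, with 6 gene lists in colour. The solid line marks equal levels and the dotted lines a 2-fold ratio. Hox genes and developmental transcription factors sit above the upper dotted line at low Bcat levels, and ribosomal protein genes form a band below the lower one.

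The ratio moved with the properties of the transcript. Its median went from -0.45 in the shortest of 10 length groups to 0.83 in the longest, and from -0.02 in the lowest of 5 GC groups to 0.92 in the highest. Across genes Spearman's rho of the ratio was 0.29 with length and 0.31 with GC content. In RingKO against WT the same values were -0.12 and 0.33. The median also ran from 0.92 in the lowest of 10 groups by WT level to -0.30 in the highest. Each ratio was therefore also taken relative to the median of entries of like length and GC content, an alternative chosen after seeing the data. On that scale 1378 entries were higher (13.6%) and 1054 lower (10.4%) of 10136 with a known length. The part of length and GC content in any single result was not tested. The counts of each list below are read against these shares, 25.7% higher and 7.6% lower of all members, and 13.6% and 10.4% on the second scale. Counts in RingKO against WT by the authors' deposited adjusted p under 0.05 are read against 5.09% higher and 3.1% lower. Those are the shares of the 10256 members in both tables.

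**Figure D2:**
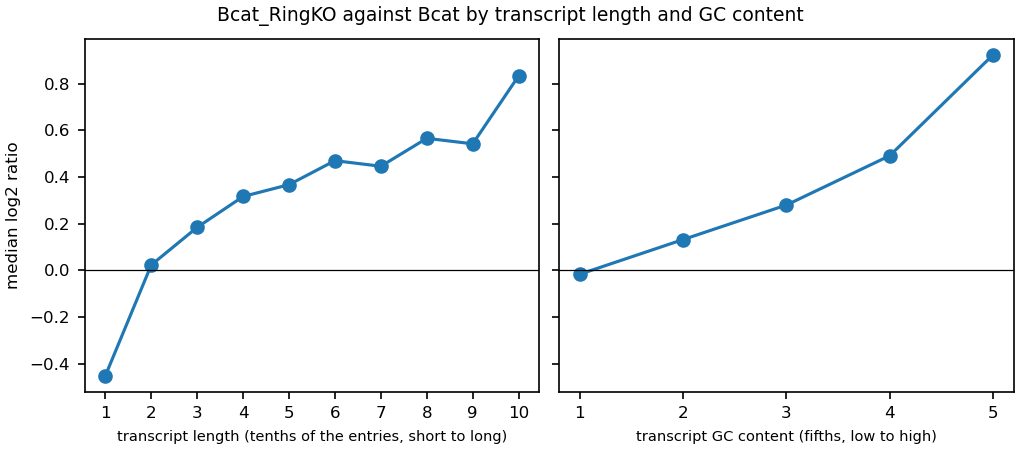
Median log2 ratio of Bcat_RingKO against Bcat in 10 groups of entries by transcript length (left) and 5 groups by GC content (right). The medians run from -0.45 to 0.83 with length and from -0.02 to 0.92 with GC content.

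Hox genes, which encode the transcription factors that set position along the body axis, were the list with the highest median ratio. The table held 37, of which 24 were members, and 21 of the 24 were higher and 0 lower, against 25.7% and 7.6% of all members. As 20 of the 24 had under 10 normalized reads in Bcat, they passed the minimum level through the Bcat_RingKO library. Over all 37 the median log2 ratio was 2.08, against 0.24 over all 17076 entries, and 36 lay above 0. Hoxd4 had 0 reads in Bcat and 449 (201 normalized) in Bcat_RingKO, at least 29.9-fold. The posterior genes Hoxb13 (0 and 260 reads), Hoxd13 (0 and 214), Hoxa11 (0 and 159) and Hoxd9 (0 and 143) were at least 17.3-fold, 14.3-fold, 10.6-fold and 9.53-fold higher. Hoxb6 had 2 reads in Bcat and 377 in Bcat_RingKO, a ratio of 37.7 (10.4 to 312). The list had 168 normalized reads in all in Bcat and 1733 in Bcat_RingKO. Without the Ctnnb1-ex3 allele it summed to 262 and 300 in WT and to 1913 and 2336 in RingKO. The 3 members with no call were Hoxb2, Hoxb4 and Hoxb8. Hoxa11os, the antisense transcript at Hoxa11, had 0 and 298 reads. The kit named by the labels does not mark strand, so reads of Hoxa11 and Hoxa11os cannot be told apart.

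Other developmental transcription factors were mostly higher as well. The table held 132, of which 61 were members, 46 of the 61 higher and 1 lower, and 42 of the 61 had under 10 normalized reads in Bcat. The median over all 132 was 0.99. Sox17, an endoderm factor, had 0 reads in Bcat and 438 in Bcat_RingKO, at least 29.2-fold. Barx1, a homeobox factor of the embryonic stomach, had 0 and 294 reads and was at least 19.6-fold higher. Zic2 was at 0 and 284 reads (at least 18.9-fold), Sim2 at 0 and 254 (at least 16.9-fold), Lhx2 at 0 and 237 (at least 15.8-fold), En2 at 0 and 230 (at least 15.3-fold) and Zic5 at 0 and 40 (at least 2.67-fold). In these 7 genes each RingKO library also exceeded both WT libraries, for instance 234 and 287 normalized reads against 1.28 and 0.705 for Barx1, and 46.9 and 22.98 against 0 and 0 for Sox17. Sox17 was at 196 normalized reads in Bcat_RingKO. Lmx1a, an enteroendocrine factor, was the 1 gene of the list called lower. Of the Hox genes and developmental factors 118 had 0 reads in Bcat, and their median in Bcat_RingKO was 26 reads, while the 4564 entries of the table without Bcat reads had a median of 3. At least 50 reads in Bcat_RingKO were seen for 41 of the 118 and for 190 of the 4564. Among the Hox genes 20 were higher and 1 lower relative to entries of like length and GC content. Among the factors 43 were higher and 4 lower on that scale.

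Of 19 members among PRC1 components, 8 were higher, and the 1 that was lower was Ring1 itself. On the length and GC scale 2 were higher and 1 lower. Cbx8, which encodes a subunit that reads the Polycomb histone mark, was at 22.4 normalized reads in Bcat and 79.6 in Bcat_RingKO, a ratio of 3.56 (1.89 to 7.55). It was higher in RingKO as well (148 and 132 normalized reads against 70.3 and 66.9 in WT, adjusted p = 0.036 in the authors' deposited table). Pcgf1, Cbx2 and Scmh1 had ratios of 3.06 (1.62 to 6.51), 2.63 (1.88 to 3.78) and 2.59 (1.502 to 4.83). Of these 4 genes, Pcgf1 kept a call relative to entries of like length and GC content. Among 10 members of PRC2, 3 were higher and 0 lower, a share near the 25.7% of all members, and 1 was higher on the length and GC scale. Phf1, an accessory subunit, led them with 7 and 288 reads and a ratio of 8.23 (3.94 to 20.6). The core genes Ezh2 (5 and 20 reads) and Suz12 (6 and 29 reads) had few reads in either library. RefSeq entries of 1 gene share exons, and how shared reads were assigned is not given in the sources used here.

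The cell cycle inhibitor Cdkn2a, a known Polycomb target, had 0 reads in Bcat and 45 (20.1 normalized) in Bcat_RingKO, at least 3.00-fold. It was at 0 in both WT libraries and at 31.3 and 44.5 normalized reads in RingKO (adjusted p = 4.3e-08 in the authors' deposited table). None of the other CDK inhibitors among the 5 members was called. Of 20 p53 target genes 7 were higher and 0 lower, against 25.7% and 7.6% of all members, and 5 of the 20 had under 10 normalized reads in Bcat. On the length and GC scale 7 were higher and 1 lower. The pro-apoptotic Bbc3 had 1 and 241 reads, a ratio of 48.2 (8.57 to 1912). Phlda3 had 3 and 342 reads, a ratio of 22.8 (7.74 to 111), and stood at 51.8 and 34.5 normalized reads in WT and 286 and 330 in RingKO. The kinase genes Plk3 and Plk2, which are also induced by stress, had ratios of 21.0 (8.93 to 64.8) and 14.0 (7.77 to 28.1). Cdkn1a, the p53 target that arrests the cycle, had 9 and 30 reads and a log2 ratio of -0.45.

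Cell cycle genes had few calls. Of 38 members 2 were higher and 2 lower, shares under the 25.7% and 7.6% of all members. The median log2 ratio was -0.08, against 0.33 over all members, and -0.33 on the length and GC scale. The proliferation marker Mki67 was at 579 normalized reads in Bcat and 1555 in Bcat_RingKO, a ratio of 2.69 (2.37 to 3.06), and Ccne1, the cyclin of S-phase entry, at 40.2 and 110, a ratio of 2.74 (1.70 to 4.71). Mad2l1 of the spindle checkpoint and Ube2c of the anaphase-promoting complex had ratios of 0.443 (0.372 to 0.530) and 0.477 (0.408 to 0.560). None of these 4 genes was called relative to entries of like length and GC content, where 0 of the list were higher and 4 lower. In RingKO against WT 0 of these 38 genes were higher and 8 lower by the authors' deposited adjusted p under 0.05, against 5.09% and 3.1% of the 10256 members in both tables.

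Among genes of the stem cell state, Lgr5 itself, on whose reporter the cells were sorted, had 146 reads (326 normalized) in Bcat and 1505 (673 normalized) in Bcat_RingKO, a ratio of 2.06 (1.74 to 2.46). This lies at the edge of the call, and relative to entries of like length and GC content the log2 ratio was 0.74, and with TMM scaling 0.82, against 1.03. Olfm4, a secreted stem cell marker, was at 4680 normalized reads in Bcat and 1134 in Bcat_RingKO, a ratio of 0.242 (0.229 to 0.257). Ascl2, the Wnt-driven master factor of these cells, was at 239 and 205, a ratio of 0.856 (0.692 to 1.07), and Axin2, a direct Wnt target, at 774 and 1289, a ratio of 1.67 (1.49 to 1.87). Neither was called, and on the length and GC scale the log2 ratio of Axin2 changed sign, from 0.73 to -0.29. Of the 43 members of the Lgr5 stem cell signature 9 were higher, a share below the 25.7% of all members, and 7 lower. The median of 0.47 became -0.02 on the length and GC scale, where 4 were higher and 8 lower. Nav1, with 183 and 1006 normalized reads, and the telomerase gene Tert, with 3 and 186 reads, led the higher genes at ratios of 5.49 (4.40 to 6.92) and 12.4 (4.18 to 60.7). Agr3 led the lower at 112 and 11.2 normalized reads. In RingKO against WT Ascl2 was lower (670 and 564 normalized reads in WT, 293 and 250 in RingKO, adjusted p = 1.8e-05 in the authors' deposited table), while Lgr5 (602 and 650, 655 and 319) was not.

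Of Wnt target genes inside the cell or at its surface, 14 of 29 members were higher and 1 lower, against 25.7% and 7.6% of all members. The ubiquitin ligase gene Znrf3, which removes Wnt receptors, was at 71.5 normalized reads in Bcat and 264 in Bcat_RingKO, a ratio of 3.69 (2.59 to 5.45). Prox1 had a ratio of 8.01 (4.74 to 14.8), Apcdd1 of 11.5 (3.86 to 56.1) and Nkd1 of 8.93 (2.99 to 43.9), the last pair resting on 3 Bcat reads each. Of 7 secreted antagonists 3 were higher and 1 lower, and as many on the length and GC scale, where the median was 0.03. In Bcat 3 of the 7 had under 10 normalized reads. Notum, which inactivates Wnt proteins, had 1 and 562 reads, a ratio of 112 (20.1 to 4447). Sfrp2, which binds Wnt proteins, had 0 and 209 reads and was at least 13.9-fold higher. By the authors' deposited adjusted p both were higher in RingKO too, Notum at 169 and 141 normalized reads against 3.83 and 6.34 in WT, and Sfrp2 at 183 and 76.1 against 2.56 and 5.64. Of the 14 Wnt ligands and receptors 12 were higher, among them Fzd3 at 15.7 and 79.2 normalized reads, a ratio of 5.06 (2.40 to 12.8). In Bcat 2 of these 14 had under 10 normalized reads. The median log2 ratio was 1.61 over the 14 and 0.85 over all 33 in the table. Of the machinery that acts on beta-catenin 10 of 20 were higher and 0 lower. On the length and GC scale 5 of the 29 targets were higher and 2 lower, 2 of the 14 ligands and receptors were higher and 0 lower, and 1 of the 20 machinery genes, Chd8, was higher and 2 lower, against 13.6% and 10.4% of all members.

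Of 20 members of the Notch pathway and its lineage regulators 12 were higher and 1, Neurog3, was lower, against 25.7% and 7.6% of all members. On the length and GC scale 7 were higher and 1 lower. In Bcat 3 of the 20 had under 10 normalized reads. Of its receptors and ligands, Notch3 had 0 and 228 reads (at least 15.2-fold) and Dll3 0 and 150 (at least 10-fold). Jag2 was at 11.2 and 226 normalized reads, a ratio of 20.2 (8.62 to 62.6), and Jag1 at 11.2 and 140, a ratio of 12.6 (5.33 to 39.0). These 3 genes, Notch3, Dll3 and Jag2, were higher in RingKO against WT by the authors' deposited adjusted p, whereas Jag1 was at 127 and 104 normalized reads in WT and 135 and 112 in RingKO.

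Of 27 members of the TGF-beta and BMP pathway 13 were higher and 0 lower (7 and 1 on the length and GC scale), led by the ligand Tgfb2 (0 and 178 reads, at least 11.9-fold). In Bcat 6 of the 27 had under 10 normalized reads, and the median log2 ratio over all 38 in the table was 0.62. Of 13 hedgehog and FGF ligands and receptors 7 were higher and 1 lower (4 and 1 on that scale), and of 14 fetal and IGF axis genes 6 and 1 (4 and 1). Under 10 normalized reads in Bcat were seen for 2 of the 13 and 3 of the 14. The fetal RNA-binding protein genes Igf2bp1 (1 and 433 reads) and Igf2bp3 (15 and 578 reads) had ratios of 86.6 (15.5 to 3428) and 7.71 (4.63 to 13.9). They were at 0.639 and 3.52 against 224 and 228 normalized reads (Igf2bp1), and at 17.9 and 21.1 against 311 and 227 (Igf2bp3), in WT and RingKO. Of 35 axon guidance genes 27 were higher and 1 lower. In Bcat 7 of the 35 had under 10 normalized reads, so they passed the minimum level through the Bcat_RingKO library. Over all 58 in the table the median log2 ratio was 0.98, against 0.24 over all entries. Robo1, a receptor for Slit ligands, had 0 and 429 reads (at least 28.6-fold), and Sema3f, a secreted semaphorin, 5 and 428 reads, a ratio of 17.1 (7.28 to 53). Of 20 collagen and matrix genes 13 were higher and 5 lower. Under 10 normalized reads were seen for 6 of the 20 in Bcat and for 6 in Bcat_RingKO. Lama5, a laminin chain of epithelial basement membranes, was at 22.4 and 665 normalized reads, a ratio of 29.7 (16.1 to 62.1), whereas the fibrillar chain Col1a2 had 25 reads in Bcat and 0 in Bcat_RingKO, which allows a ratio of up to 0.0318. Col1a2 belongs to the mesenchymal markers, whose sums are given above. On the length and GC scale 11 axon guidance genes were higher and 2 lower, and 5 matrix genes were higher and 6 lower. The median log2 ratio over all 39 matrix genes in the table was 0.31, against 0.24 over all entries.

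**Figure D3:**
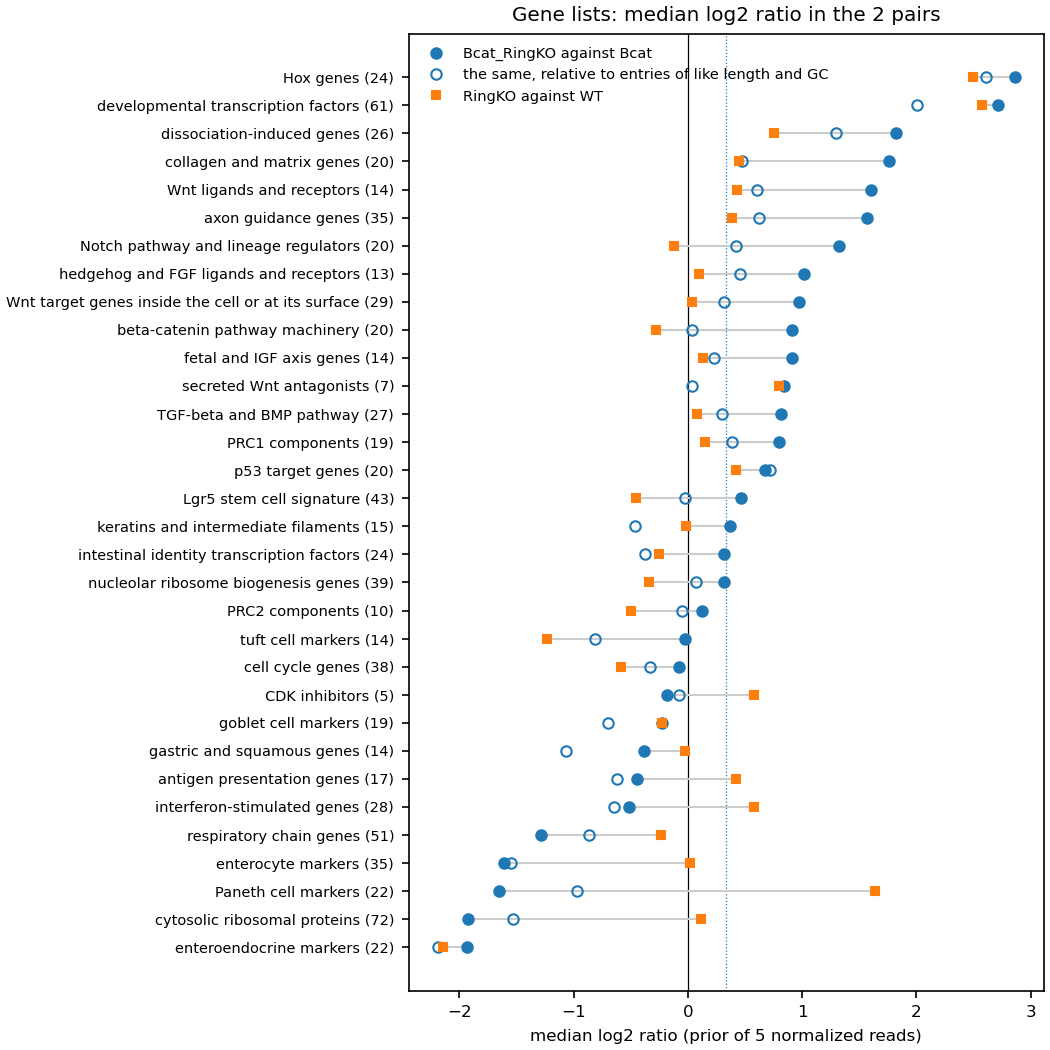
Median log2 ratio (prior of 5 normalized reads) of the gene lists, with the number of members in brackets. The epithelial genes used as a check and the marker lists of other cells are not drawn. Filled circles show Bcat_RingKO against Bcat, open circles the same relative to entries of like length and GC content, and squares RingKO against WT, and the dotted line marks the median of all members, 0.33. Hox genes and developmental factors are high in both pairs, enteroendocrine markers low in both, and Paneth cell markers lie on opposite sides.

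Enteroendocrine genes, which mark the hormone-producing cells of the epithelium, were lower. Of 22 members 17 were lower and 1, Vwa5b2, was higher, against 7.6% and 25.7% of all members. As 8 of the 22 had under 10 normalized reads in Bcat_RingKO, they passed the minimum level through the Bcat library. Over all 33 in the table the median log2 ratio was -1.33, against 0.24 over all entries. Neurog3, the factor that starts this lineage, had 29 reads (64.8 normalized) in Bcat and 12 (5.37 normalized) in Bcat_RingKO, a ratio of 0.0828 (0.0385 to 0.167). The hormone genes Gcg, Sst and Gip were at 98.4 and 4.92, 228 and 22.4, and 492 and 75.6 normalized reads, with ratios of 0.05 (0.0233 to 0.0984), 0.0980 (0.0684 to 0.139) and 0.154 (0.125 to 0.189). Chgb, a granule protein gene, went from 2203 to 301. Against entries of like length and GC content 17 of the 22 were lower. By the authors' deposited adjusted p 17 of the 22 were lower in RingKO against WT, against 3.1% of the members in both tables. Neurog3 was at 113 and 133 normalized reads in WT and 11.4 and 11.5 in RingKO. In these bulk libraries fewer cells of a type and less RNA per cell cannot be told apart. Of 14 tuft cell markers 3 were lower (Rgs13, Spib and Alox5ap) and 2 higher, and on the length and GC scale 5 were lower and 2 higher. Rgs13, with 250 and 27.3 normalized reads, Spib and Alox5ap were also lower in RingKO.

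Paneth cell genes, which encode the antimicrobial proteins of the crypt base, were lower too, in 15 of 22 members, with 2 higher. Lysozyme, Lyz1, was at 3522 normalized reads in Bcat and 772 in Bcat_RingKO, a ratio of 0.219 (0.205 to 0.235). The defensins Defa21, Defa22 and Defa24 had ratios of 0.220 to 0.245. These defensin genes are near-identical copies, between which reads can be split. Mptx2, a mucosal pentraxin, was at 1033 and 208, a ratio of 0.201 (0.177 to 0.230). Its neighbour in the family, Mptx1, went the other way with 22.4 and 226 normalized reads, a ratio of 10.1 (5.45 to 21.2). In RingKO against WT 14 of the 22 were higher and 0 lower by the authors' deposited adjusted p. The shares over members in both tables were 5.09% and 3.1%. Lyz1 was at 6686 and 4447 normalized reads in WT and at 12975 and 18026 in RingKO, and Mptx1 at 13.4 and 16.9 in WT and 884 and 939 in RingKO. Summed over the list, Paneth cell genes had 14680 normalized reads in Bcat and 4766 in Bcat_RingKO, 23310 and 15440 in WT, and 49556 and 64386 in RingKO. Relative to entries of like length and GC content 11 of the 22 were lower.

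Enterocyte genes, those of the absorptive cells, were lower in 23 of 35 members and higher in 1, Slc2a5. The apolipoprotein gene Apoa4 was at 2683 normalized reads in Bcat and 374 in Bcat_RingKO, a ratio of 0.139 (0.127 to 0.152), and the fatty acid carrier gene Fabp2 at 1648 and 233, a ratio of 0.142 (0.126 to 0.159). Cyp3a11, Apoc3, Reg1 and Slc6a19 had ratios of 0.101 to 0.117. The count was 25 relative to entries of like length and GC content. In RingKO against WT 8 were lower and 1 higher, against 3.1% and 5.09% of the members in both tables. The 2 RingKO libraries stood apart for Apoa4 (266 and 1114 normalized reads) and Apoc3 (17.1 and 134). Of 19 goblet cell markers 8 were lower, and 5 were higher, a share close to the 25.7% of all members. On the length and GC scale 5 were lower and 1 higher. The small secreted proteins Tff3 and Zg16 had ratios of 0.277 (0.245 to 0.312) and 0.254 (0.225 to 0.287), whereas Clca1, also secreted by goblet cells, had 4 and 255 reads, a ratio of 12.8 (4.92 to 47.1). Of 24 intestinal identity factors 5 were higher and 4 lower, and 2 and 9 on the length and GC scale. Hnf4g and Isx were lower, at 0.270 (0.231 to 0.315) and 0.364 (0.300 to 0.442), and were lower in RingKO as well by the authors' deposited adjusted p (0.0051 and 2.7e-06). Cdx2, the factor that specifies intestine, was at 783 and 569 normalized reads and had no call, but was called lower on the length and GC scale, with a log2 ratio of -1.40. Gastric and squamous genes were lower in 6 and higher in 2 of 14 (7 and 2 on that scale), among them the stomach genes Gkn3 (615 and 134 normalized reads) and Tff2 (970 and 228). Keratins and intermediate filaments were higher in 5 and lower in 3 of 15 (4 and 4 on that scale), with Krt8 of simple epithelia at 3189 and 1229. In Bcat 4 of these 15 had under 10 normalized reads.

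**Figure D4:**
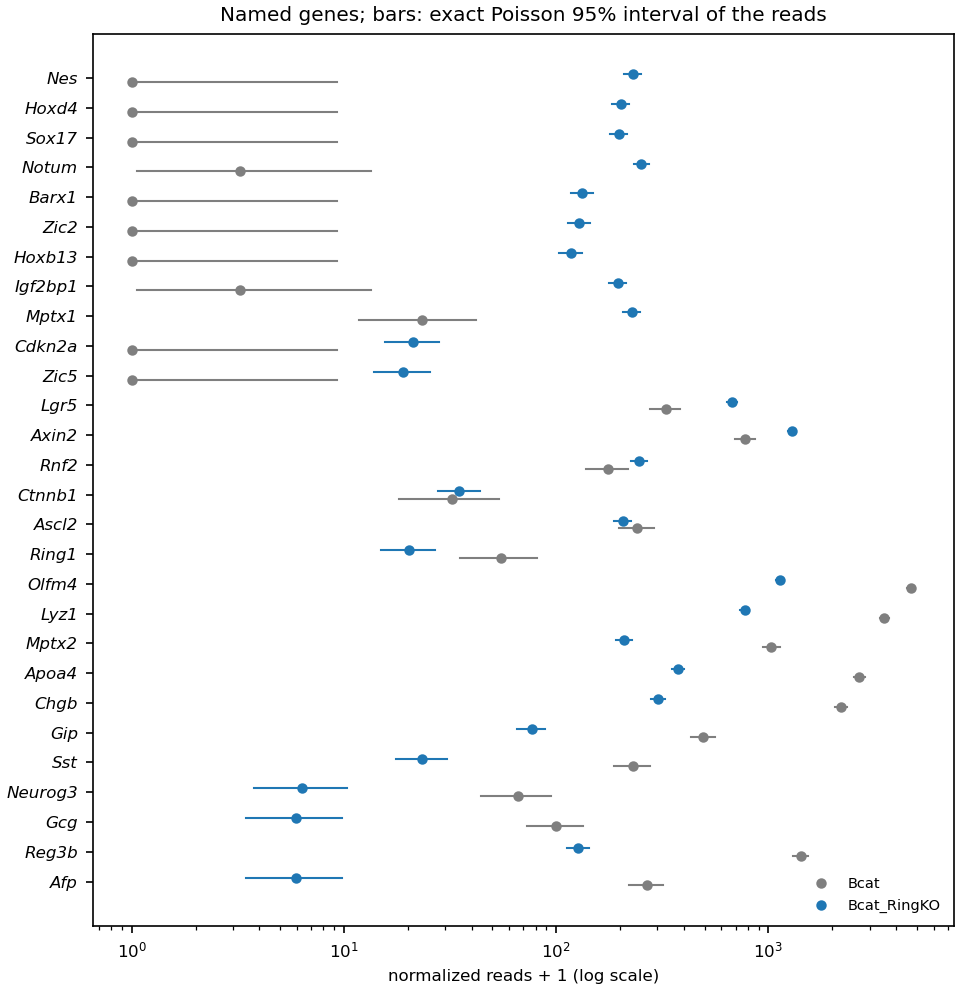
Normalized reads plus 1 (log scale) of 28 genes in Bcat (grey) and Bcat_RingKO (blue), with bars for the exact Poisson 95% interval of the reads. Nes, Hoxd4 and Sox17 lie at 0 reads in Bcat, and Neurog3, Gcg and Afp fall to 12, 11 and 11 reads in Bcat_RingKO.

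Ribosomal protein genes were the most uniform list. Of 72 members 70 were lower and 0 higher, with a median log2 ratio of -1.93. Rps20 was at 1453 normalized reads in Bcat and 332 in Bcat_RingKO, a ratio of 0.228 (0.205 to 0.254), and the list summed to 109328 and 28347. Relative to entries of like length and GC content 64 were lower, with a median of -1.53. In RingKO against WT 0 of the 72 passed the authors' deposited adjusted p in either direction and the median was 0.12. Nuclear-encoded respiratory chain genes, also short transcripts, were lower in 36 of 51 members and higher in 0, and lower in 21 on the length and GC scale, against 7.6% and 10.4% of all members. Atp5e was at 787 and 201, a ratio of 0.255 (0.221 to 0.294). Genes of ribosome assembly in the nucleolus were higher in 6 and lower in 3 of 39, and relative to entries of like length and GC content in 0 and 3.

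Genes induced when tissue is dissociated, the immediate early and heat shock genes, were higher in 18 of 26 members and lower in 1, and in 14 and 2 on the length and GC scale. Nr4a1 was at 29.1 normalized reads in Bcat and 792 in Bcat_RingKO, a ratio of 27.2 (15.9 to 51.2), and Fosb at 96.2 and 1045, a ratio of 10.9 (8.04 to 15.1). In WT and RingKO Nr4a1 was at 864 and 1210, and 1327 and 2688, normalized reads. Hspa1a and Hspa1b, near-identical genes for the inducible HSP70, had 1 and 363, and 5 and 615, reads. Interferon-stimulated genes were lower in 8 and higher in 3 of 28, and in 11 and 2 on the length and GC scale. Ifit1, an antiviral effector, was at 132 and 34.9, a ratio of 0.264 (0.186 to 0.377). Antigen presentation genes were higher in 3 and lower in 1 of 17, both below the shares over all members, and in 1 and 3 on the length and GC scale. H2-Q10 was higher in both pairs, at 29.1 and 205 normalized reads here and at 67.8 and 65.5 in WT against 513 and 491 in RingKO.

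The 12 highest ratios at a level of at least 50 normalized reads were those of Nes, Hoxd4, Ptn, Sox17, Robo1, Notum, Nlgn2, Adamts1, Egfl6, Hspb1, Fam71a and Hoxa11os, and 8 of these had 0 reads in Bcat. Nes, the gene of nestin, an intermediate filament of progenitor cells, had 0 and 510 reads (228 normalized), at least 34.0-fold. It was at 3.20 and 4.93 normalized reads in WT and 516 and 475 in RingKO. Nlgn2, a postsynaptic adhesion gene, had 3 and 844 reads, a ratio of 56.3 (19.2 to 273). Ptn, a heparin-binding growth factor gene, had 0 and 442 reads (at least 29.5-fold), against 0 and 1.41 normalized reads in WT and 24.2 and 2.87 in RingKO. Of the 12 genes 7 were higher in RingKO against WT by the authors' deposited adjusted p, against 5.09% of the members in both tables. Ptn, Robo1, Adamts1, Egfl6 and Fam71a were not.

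At the other end stood Afp, Mylk4, Akp3, Rhox8, Tmigd1, Clca6, Bst1, Col1a2, Usp17la, Gda, Enpp7 and Reg3b. Afp, the fetal serum protein alpha-fetoprotein, had 119 reads (266 normalized) in Bcat and 11 (4.92 normalized) in Bcat_RingKO, a ratio of 0.0185 (0.00899 to 0.0343). Akp3 and Enpp7, brush border enzymes, had ratios of 0.0226 (0.0120 to 0.0393) and 0.0294 (0.00898 to 0.0756). Reg3b, an antimicrobial lectin, was at 1418 and 126 normalized reads, a ratio of 0.0886 (0.0767 to 0.102), and was the 1 gene of the 12 that was lower in RingKO as well (745 and 865 in WT, 85.3 and 118 in RingKO). Afp varied between libraries of 1 group without the Ctnnb1-ex3 allele, at 26.2 and 66.9 in WT and 69.6 and 11.5 in RingKO. Usp17la belongs to a family of near-identical copies.

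The 2 pairs share no library, and 9893 entries had a mean of at least 10 in both tables. By the authors' deposited adjusted p under 0.05, 516 of them (5.22%) were higher and 318 (3.21%) lower in RingKO than in WT. Of the 516 entries 437 (84.7%) were also higher in Bcat_RingKO, as were 2572 of all 9893 entries. The 437 are 17.0% of those 2572, and 345 of the 437 were also called higher relative to entries of like length and GC content. Of the 318 lower entries 76 (23.9%) were lower in Bcat_RingKO too, as were 668 of all 9893. The 76 are 11.4% of those 668, and 67 of the 76 were also called lower on the length and GC scale. Opposite calls numbered 14 (higher in Bcat_RingKO, lower in RingKO) and 19. The median log2 ratio in the Bcat pair was 2.41 over the 516 entries, 488 of them above 0, and -0.28 over the 318, 197 of them below 0, against 0.35 over all 9893. Across these genes, which are not independent replicates, Pearson's r of the log2 ratios was 0.55 and Spearman's rho 0.40. The table pairs were scaled separately, so levels are compared within a pair only.

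**Figure D5:**
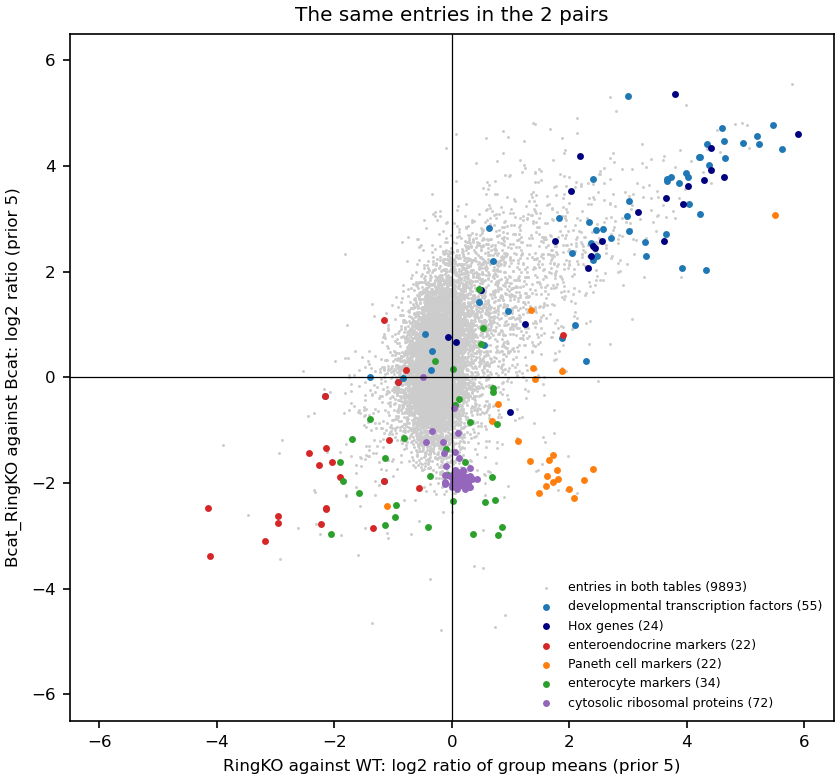
Log2 ratio (prior of 5 normalized reads) of RingKO against WT group means (x axis) and of Bcat_RingKO against Bcat (y axis) for 9893 entries in both tables, with 6 gene lists in colour. Developmental factors and Hox genes extend to the upper right, enteroendocrine markers to the lower left, most Paneth cell markers fall at the lower right, and ribosomal protein genes lie below 0 on the y axis near 0 on the x axis.

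The ratios of the 2 pairs differed by at least 1 on the log2 scale in 2818 entries toward Bcat_RingKO. In 523 entries they differed by as much the other way. Over the 9893 entries compared, the median log2 ratio was 0.35 in the Bcat pair and -0.18 in RingKO against WT. The counts were not adjusted for this offset between separately scaled tables. Differences between the pairs were not tested. The 8 largest of the first kind at a level of at least 50 in both tables were those of Xist, Nr4a1, Lag3, Ier5l, Egr2, Gadd45b, Notch4 and Clca1. Gadd45b, a stress-induced gene, had 7 and 754 reads in the Bcat pair, a log2 ratio of 4.05, and one of 0.42 in RingKO against WT. Egr2, an immediate early factor, had log2 ratios of 3.47 and -0.33. Among the 8 of the second kind were Mptx2, Defa22, Defa21, Defa24, Ang4 and Clps, which are on the Paneth cell list, and Apoa4, which is not.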

How the data were processed

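Total RNA of sorted Lgr5-GFP+ crypt cells was made into TruSeq RNA v2 libraries, per the labels' protocols. TopHat, DESeq and the mm9 build are named, without versions, per the submitters' processing notes. Which counter and annotation were used, and whether strand was, is not given in the sources used here. The deposited values are signal: normalized reads per RefSeq entry, 1 column per library for the Bcat pair and group means for WT and RingKO, with the authors' fold (ratio), its log2 value and p-values. From the values, each is a read count plus 1 over a size factor, and 100% of them came out whole within 0.001. Recovered reads gave all levels here, and the libraries of WT and RingKO are called A and B because they cannot be matched to replicate numbers. The authors' p-values of the Bcat pair, which rest on 1 library a group, were not used.

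Log2 ratios used a prior of 5, intervals were exact conditional binomial (Clopper-Pearson, scipy 1.17.1), and a 95% interval was tested on simulated counts. In 29 entries a symbol turned into a date was restored through the accession. Length and GC content came from GENCODE transcripts (98.7% of members matched), in 10 length and 5 GC groups. RingKO against WT was read from the authors' deposited adjusted p under 0.05. As an alternative added after seeing the data, edgeR 4.0.16 (quasi-likelihood test, TMM, R 4.3.3) was run on the recovered reads. Where the labels do not say that libraries came from separate animals, these p-values measure only the spread between libraries. The 36 gene lists hold 1 entry per symbol. Members and lists were chosen with earlier results of these data known. Named genes were Cdkn2a, Ring1, Rnf2, Zic2, Zic5, Ctnnb1, Lgr5, Axin2, Ascl2 and Olfm4, the 12 highest and 12 lowest ratios with at least 50 normalized reads in 1 library, up to 6 called members per list, and the 8 largest differences between pairs each way. Ezh2, Suz12, Cdx2, Cdh1, Cdkn1a, the uncalled Hox genes, single list genes called against their list and marker genes at 0 were named after their values were seen. At the edge of the minimum, Fam46b (1 and 33 reads, mean 9.84) fell outside and Col5a1 (5 and 14 reads, mean 10.1) inside. Some genes that the rule names are not reported here.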

Additional observations from a re-analysis of the deposited data

Results flagged for a closer look

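In 7 named genes the ratio went one way in the Bcat pair and the other way in RingKO against WT, with a call on each side. The difference between the pairs was not tested, and the Bcat pair has 1 library a group. The log2 ratios, Bcat pair first, were -1.74 and 2.41 for Ang4, -1.93 and 1.81 for Clps, -1.97 and 1.72 for Defa24, -2.18 and 1.48 for Lyz1, and -2.29 and 2.07 for Mptx2. These 5 are on the Paneth cell list. Spink4, on the goblet cell list, had -1.75 and 1.46. Mki67 had 1.42 and -0.60, and its Bcat-pair value was 0.61 relative to entries of like length and GC content.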

How the results depend on the processing

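Higher entries in Bcat_RingKO numbered 1594 with a mean of at least 50, 854 with a fold of at least 4 and 1378 relative to entries of like length and GC content, against 2642. Lower entries numbered 158 with a fold of at least 4, against 780. Priors of 1 and 20, TMM and total-read scaling, no minimum level, and 1 entry per symbol left both counts within 1.5 times. Relative to like length and GC content the log2 ratios of Dvl2 (-0.0148), Smo (-0.26) and Lmna (-0.13), called higher, and of Axin2 (-0.29) and Ctnnb1 (-0.26), with no call, turned sign (Ctnnb1 also with TMM, at -0.08), and the cause was not tested beyond that construction. Under this setting 17 of 36 list medians moved by more than 0.534, the SD of the log2 ratio between the 2 RingKO libraries. With priors of 1 and 20 the log2 ratios of 51 and 85 of the 202 genes that the naming rule picks moved by at least that much. Entries higher in both pairs numbered 737 with edgeR for RingKO against WT, against 437, and with 1 library left out from 387 to 1087, the last without RingKO library A (794 without RingKO library B). Entries lower in both numbered from 40 to 176, against 76, with 41 and 40 without WT library A or B and 176 without RingKO library A. The lone library is then assumed to vary like the other group. With a prior of 20, differences between the pairs numbered 1969 and 392, against 2818 and 523. No paired analysis was possible because the columns carry no replicate numbers and the Bcat pair has 1 library a group. The 922153 reads of Bcat limit all low levels, where 3 reads are 6.71 normalized reads.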
